A study of Canis lupus familiaris with 5 samples.

Results

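The genes described here encode the ligands and receptors of the APRIL and BAFF system, which were 5 of the 20257 features measured. They were taken by symbol from the deposited count tables: TNFSF13 (APRIL, ENSCAFG00000016618), TNFSF13B (BAFF, ENSCAFG00000031735), TNFRSF13B (TACI, ENSCAFG00000018519), TNFRSF13C (the BAFF receptor, ENSCAFG00000001005) and TNFRSF17 (BCMA, ENSCAFG00000018852). All 5 were present, with 9785, 12375, 304, 6558 and 1182 counted molecules over all libraries in that order.

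Single-cell RNA sequencing was done on femoral bone marrow of 3 healthy dogs, all given as genotype Wt. Age, sex and breed are not given in the sources used here. Marrow was flushed, treated to lyse red cells and loaded unsorted, which gave 3 whole-marrow libraries, and viable cells carrying the progenitor surface protein CD34 were sorted from marrows 2 and 3, which gave 2 CD34-sorted libraries. The chemistry reads transcripts from their 3' ends and marks each molecule with its own identifier (UMI), so a count is a number of UMIs.

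APRIL and BAFF are related members of the tumour necrosis factor family that keep B-lineage cells alive. In human and mouse, BAFF binds the BAFF receptor, TACI and BCMA, while APRIL binds TACI and BCMA and also heparan sulfate chains such as those on the plasma-cell proteoglycan SDC1. The BAFF receptor is the main survival receptor of mature B cells, BCMA serves long-lived plasma cells, and TACI is carried by activated B cells and plasma cells. In bone marrow of those species the ligands are known from myeloid cells, which share niches with plasma cells, and a furin-type protease releases them as soluble proteins.

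The libraries held 46114431 to 54074420 UMIs in whole marrow and 62188030 and 70169186 UMIs in the sorted libraries. Filtering to barcodes with 200 genes or more and no more than 10% mitochondrial UMIs left 7295, 4585 and 4343 from whole marrows 1 to 3, and sorted libraries 1 and 2 kept 4720 and 3765. The median depth was 2694, 3689 and 4344 UMIs per kept barcode in whole marrow against 11622 and 14623 in sorted libraries, so shares of barcodes with a UMI are not on 1 scale between the groups. Each pair of libraries shared 3 to 11 barcode sequences. Of the kept barcodes, 151 to 426 per whole-marrow library and 113 and 178 per sorted library were called doublets and stayed in unless stated.

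Cells were grouped by 8 gates, each a threshold on 1 or 2 marker genes in a barcode: MPO at 0.1% of UMIs and ELANE at 1% (early neutrophil granule genes), CAMP at 1% (a later granule gene), CXCL8 at 2 UMIs (a chemokine of late neutrophils), VCAN at 2 UMIs (a monocyte gene), VPREB1 at 5 UMIs (the surrogate light chain of B-cell precursors), MS4A1 at 2 UMIs (the B-cell surface protein CD20), and JCHAIN at 0.2% of UMIs with MS4A1 at 0 (the joining chain of secreted antibody). Gates can overlap. In whole marrow they held 273 to 641 (MPO), 232 to 516 (ELANE), 1406 to 2466 (CAMP), 917 to 1154 (CXCL8), 322 to 565 (VCAN), 57 to 206 (VPREB1), 47 to 97 (MS4A1) and 12 to 39 (JCHAIN) barcodes. The sorted libraries held enough barcodes for a sum in the MPO gate (445 and 370) and the VPREB1 gate (2122 and 1560), and had 3 and 19 in the ELANE gate and at most 13 in the CAMP, CXCL8, VCAN and MS4A1 gates. The 23 barcodes of the JCHAIN gate in sorted library 1 all met the VPREB1 gate too and held no UMI of any of the 5 genes.

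Gate names were checked against lists of cell type markers. All 8 plasma-cell markers had UMIs in the JCHAIN gate of marrows 1 and 2, and 7 of 8 in marrow 3, where SDC1 was at 0. Summed plasma markers reached 6209 to 13746 CPM there, where CPM is a gene's UMIs divided by all UMIs of the set and multiplied by 1000000. JCHAIN is on the plasma list and is required by the gate. Part of this sum, and the detection of JCHAIN itself, are therefore fixed by the gate. The same gate held 1951 to 6195 CPM of late neutrophil, 2675 to 5053 CPM of myelocyte and granule and 111 to 2736 CPM of neutrophil-progenitor markers. All 8 monocyte-macrophage markers found in the files had UMIs in the VCAN gate of marrows 1 and 2, and 7 in marrow 3, with C1QB at 0. Monocyte-macrophage markers summed to 18215 to 22368 CPM in that gate, beside 3833 to 5920 CPM of erythroid and 3627 to 3796 CPM of late neutrophil markers. The same list, which holds VCAN itself, summed to 22043 to 28950 CPM in the CAMP gate and 11667 to 24872 CPM in the CXCL8 gate. Its sum therefore does not set the VCAN gate apart from the neutrophil gates. The MS4A1 gate was mixed: the mature B list summed to 545 to 933 CPM but the plasma list to 2370 to 4565 CPM. Late neutrophil markers summed to 1128 to 3173 CPM in it. Only 2 of 6 neutrophil-progenitor markers, MPO and ELANE, were found in the files, so the MPO gate was checked on its own gate genes alone. The CXCL8 gate was shallow, with medians of 1040 to 2181 UMIs per barcode against 9720 to 13968.5 in the VCAN gate. As a reference for free RNA, barcodes with HBM at 1% of UMIs or more (erythroid cells, median 34489 to 47112 UMIs) were read in the same way, as cells taken to lack these transcripts. Late neutrophil markers summed to 458 to 847 CPM in these deep barcodes but to 2683 to 4826 CPM in the shallower VPREB1 gate, so the reference can understate background in shallow gates.

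TNFSF13, which encodes APRIL, was a transcript of VCAN-gated and early neutrophil-gated barcodes. Its level in the VCAN gate was 128, 115 and 120 CPM in whole marrows 1 to 3. In the MPO gate it was 112, 123 and 111 CPM, and in the ELANE gate 109, 117 and 119 CPM. These 3 gates overlapped in their library values and stood above every other gate of the rule, with means of 121 ± 6.62, 115 ± 6.72 and 115 ± 5.31 CPM (SD, n = 3). A TNFSF13 UMI was found in 62.3% to 66.1% of VCAN-gated, 62.4% to 80.6% of MPO-gated and 70.9% to 87.9% of ELANE-gated barcodes. The erythroid reference had one in 1.57% to 3.51% of barcodes at higher depth, with 0.897 to 1.68 CPM. After each barcode was thinned to 1000 UMIs, the VCAN gate stood above the other two: 17.4% to 21.4% of VCAN-gated barcodes held a UMI against 9.27% to 12.3% of MPO-gated and 9.15% to 11.7% of ELANE-gated ones. Thinning left out barcodes under 1000 UMIs and kept 550 of 641, 332 of 360 and 262 of 273 MPO-gated ones. A shallower barcode meets the MPO gate with 1 MPO UMI, so such barcodes can lower that gate's share before thinning.

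Later neutrophil gates held less TNFSF13. In the CAMP gate its level was 54.0, 50.8 and 53.2 CPM. Levels in the CXCL8 gate spread widely, at 78.0, 101 and 33.0 CPM. Marrow 3 was the low one there, and the range spanned that of the CAMP gate. The CXCL8 gate was not uniform: 88, 126 and 65 barcodes held a TNFSF13 UMI, and these were 7.63%, 13.7% and 5.91% of the gate. Positive barcodes had median depths of 6481, 7838 and 10637 UMIs and 798, 1167 and 1084 CPM of MPO, against 72.7, 28.2 and 74.7 CPM of MPO in the negative ones. S100A12, a calgranulin of late neutrophils, ran the other way, at 15117, 11559 and 34128 CPM in positive and 79055, 73123 and 94679 CPM in negative barcodes. The part that depth and mixed barcodes have in the CXCL8 value was not tested.

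B-lineage gates were near the bottom for TNFSF13. The VPREB1 gate had 8.50, 20.6 and 10.4 CPM, from 4, 3 and 9 positive barcodes. In the MS4A1 gate 2 barcodes per library held it, and in the JCHAIN gate 2, 1 and 0. At 0 UMIs in 12 barcodes of marrow 3, the limit that 3 counts allow was 9.28 CPM, which is too wide to place the gate. Such limits and exact intervals cover counting error only, and concern UMIs, not cells that express the gene.

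Barcodes were then split by which gates they shared, a division made after the data were seen. TNFSF13 was 121, 138 and 77.1 CPM in MPO-gated barcodes outside the ELANE, CAMP, CXCL8, VCAN and VPREB1 gates (104, 67 and 27 barcodes). With ELANE added but no CAMP it was 96.4, 91.9 and 95.3 CPM, and with ELANE and CAMP together 133, 164 and 149 CPM. Barcodes in the CAMP gate alone had 32.1, 23.5 and 30.2 CPM. The CAMP gate as a whole thus combined a set with high and a larger set with low TNFSF13. CXCL8-gated barcodes also split: 139, 191 and 103 CPM with VCAN, and 44.5, 35.6 and 11.01 CPM in the CXCL8 gate alone.

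**Figure D1:**
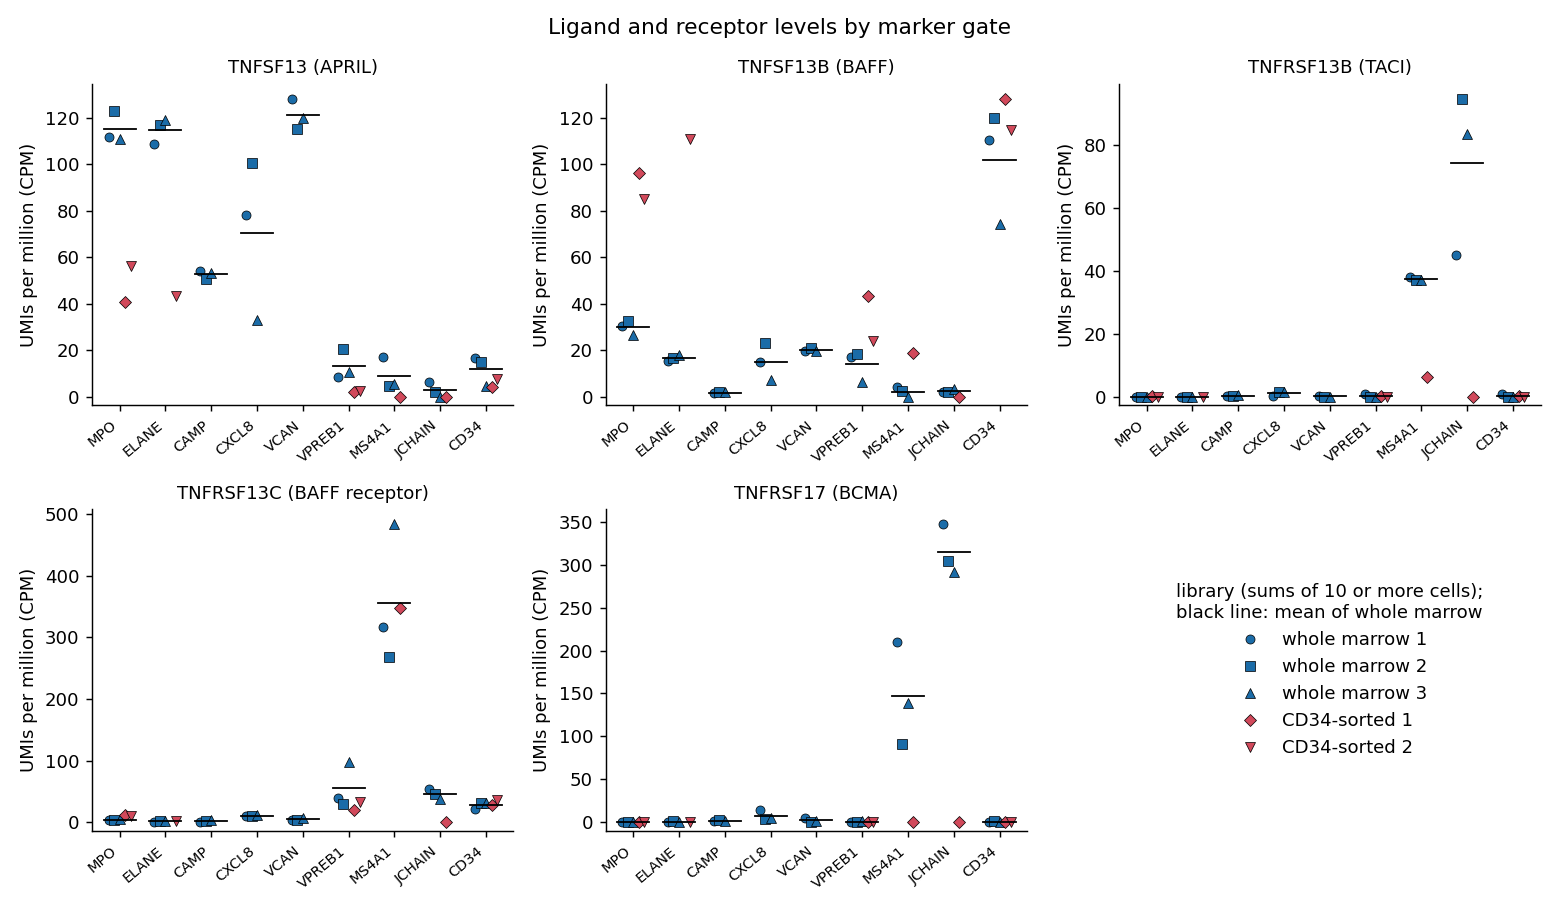
Level of each gene, in CPM, in the 8 marker gates and an added CD34 gate, 1 point per library for sums of at least 10 barcodes; black lines are means of the 3 whole marrows. TNFSF13 is highest in the MPO, ELANE and VCAN gates of whole marrow (109 to 128 CPM), TNFSF13B in the CD34 gate (74.2 to 128 CPM), TNFRSF13C in the MS4A1 gate (268 to 483 CPM) and TNFRSF17 in the JCHAIN gate (291 to 347 CPM).

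TNFSF13B, which encodes BAFF, followed another course in the myeloid gates. Its level in the MPO gate of whole marrow was 30.3, 32.4 and 26.6 CPM. It was 19.7, 21.0 and 19.8 CPM in the VCAN gate and 15.5, 16.6 and 18.0 CPM in the ELANE gate. The library values of these 3 gates did not overlap, with means of 29.7 ± 2.93, 20.2 ± 0.744 and 16.7 ± 1.27 CPM (SD, n = 3). Their barcodes did: 479 of 516, 267 of 279 and 226 of 232 ELANE-gated barcodes also met the MPO gate. The CXCL8 gate spread over 14.9, 23.1 and 7.17 CPM. The CAMP gate, at 1.37, 1.75 and 1.87 CPM, lay within the range of the erythroid reference, 0.503 to 1.97 CPM, and as a whole is not told apart from background. Its value is mixed. Barcodes that also met the ELANE gate lay above that range, and those in the CAMP gate alone did not, as given below. In the MS4A1 and JCHAIN gates 0 to 2 UMIs were counted per library.

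Outside the 8 gates, TNFSF13B was concentrated in CD34-positive barcodes. An added gate of CD34 at 2 UMIs or more, with VPREB1 under 5 UMIs and MPO under 0.1%, held 48, 31 and 39 barcodes in whole marrow and 1792 and 1308 in sorted libraries. The TNFSF13B level there was 111, 120 and 74.2 CPM in whole marrow and 128 and 115 CPM in sorted libraries. Both sorted libraries fell above or within the whole-marrow range. A UMI was found in 79.2%, 87.1% and 87.2% of these barcodes in whole marrow (exact 95% intervals 65.0% to 89.5%, 70.2% to 96.4% and 72.6% to 95.7%) and in 79.0% and 80.8% in sorted libraries. Median depths in the gate were 22553.5 to 27429 UMIs in whole marrow and 15696.5 and 18526 in sorted libraries. Among whole-marrow barcodes outside the 8 gates, those with a TNFSF13B UMI held 84.7, 63.4 and 90.5 CPM of CD34, against 3.94, 0.984 and 2.53 CPM in those without.

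The same split of neutrophil gates gave a falling series for TNFSF13B. MPO-gated barcodes outside the other myeloid gates had 78.8, 59.8 and 92.2 CPM. Adding ELANE without CAMP gave 22.1, 21.9 and 29.5 CPM, and ELANE with CAMP 3.27, 7.41 and 2.97 CPM. Barcodes of the CAMP gate alone were at 0.956, 0.164 and 0.924 CPM. None of these 4 sets overlapped with the next. VCAN-only barcodes were at 19.3, 19.6 and 19.6 CPM, those with both CXCL8 and VCAN at 25.3, 30.2 and 23.7 CPM, and CXCL8-only ones at 9.53, 14.2 and 3.55 CPM.

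B-cell precursors split by CD34 as well. VPREB1-gated barcodes with a CD34 UMI had 52.4 and 40.04 CPM of TNFSF13B in the sorted libraries, against 10.8 and 6.80 CPM in those with CD34 at 0. The same split in whole marrow gave 25.7, 22.4 and 8.74 CPM with CD34 (84, 25 and 19 barcodes) and 8.44, 8.08 and 5.93 CPM without (122, 32 and 163 barcodes). The CD34-positive set was the higher one in both sorted libraries, with 595 against 34 and 300 against 49 UMIs, and in marrow 1, with 18 against 6. Marrows 2 and 3 rest on 1 UMI in the set without CD34 and 2 UMIs in the set with it, so no direction is read there. Each pair comes from 1 library, so barcodes within it are not replicates, and the pair was chosen after the data were seen.

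**Figure D2:**
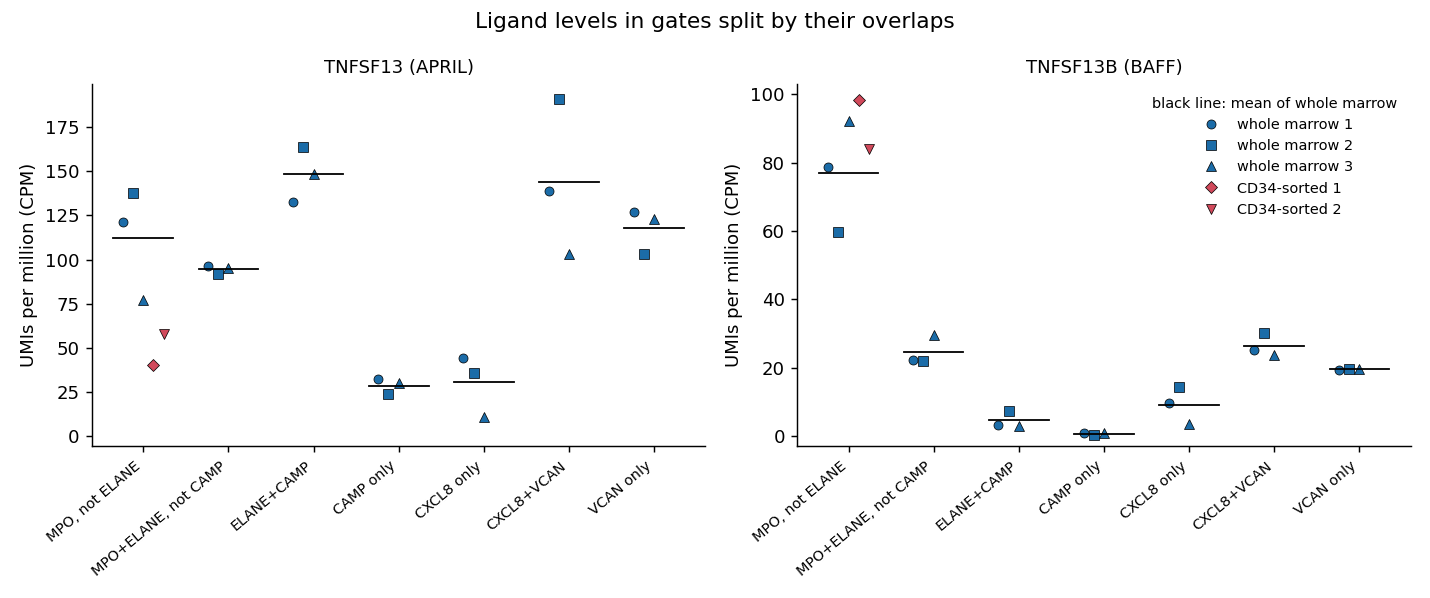
Level of the ligands in CPM in barcodes split by which gates they meet, 1 point per library for sets of at least 20 barcodes; black lines are whole-marrow means. TNFSF13B falls from 59.8 to 92.2 CPM in MPO-gated barcodes outside the ELANE gate to 0.164 to 0.956 CPM in CAMP-only ones, while TNFSF13 is still 133 to 164 CPM where ELANE and CAMP are both met.

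TNFRSF13C, the BAFF receptor gene, was highest in the MS4A1 gate. There it was 317, 268 and 483 CPM in whole marrows 1 to 3, and 85.4%, 78.7% and 89.7% of barcodes held a UMI. After thinning, 43.8%, 48.9% and 44.3% still did. The sorted libraries had 347 and 492 CPM from 13 and 6 barcodes. In whole marrow none of the other 7 gates of the rule overlapped with these values, at a mean of 356 ± 113 CPM (SD, n = 3).

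Next came the VPREB1 and JCHAIN gates, whose library values overlapped. The VPREB1 gate had 39.0, 29.8 and 97.7 CPM in whole marrow and 20.6 and 32.9 CPM in sorted libraries, and marrow 3 stood above the others. The JCHAIN gate had 53.4, 46.6 and 37.1 CPM, with a UMI in 41.0%, 45.7% and 66.7% of barcodes. In myeloid gates the level was lower, at 9.62 to 12.1 CPM for CXCL8, 3.36 to 7.46 for VCAN, 3.01 to 5.07 for MPO, 1.29 to 4.34 for CAMP and 0.925 to 2.40 for ELANE, against 0 to 1.26 CPM in the erythroid reference.

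Most TNFRSF13C UMIs of whole marrow lay outside the 8 gates, at 67.2%, 58.2% and 53.3%. Outside-gate barcodes with a TNFRSF13C UMI held 450, 392 and 483 CPM of LTB, a cytokine gene of lymphocytes, against 71.8, 58.6 and 42.0 CPM in those without. They also held 67.1, 112 and 354 CPM of PAX5, the B-lineage transcription factor, against 7.11, 8.06 and 91.2 CPM in those without, and 33.3, 19.997 and 22.1 CPM of MS4A1. Barcodes with IRF8 and TCF4 at 2 UMIs each and no VPREB1 or MS4A1, a profile of plasmacytoid dendritic cells, had 51.5, 34.2 and 56.8 CPM of TNFRSF13C in whole marrow and 83.2 and 79.1 CPM in sorted libraries. The CD34 gate had 22.1, 31.0 and 30.6 CPM in whole marrow and 27.4 and 35.6 CPM in sorted libraries. Barcodes with 2 UMIs or more of a C1Q gene (macrophage complement) ranged from 8.87 to 306 CPM. Without the 2, 7 and 16 of them that also held MS4A1 or PAX5, the C1Q value was 9.18, 14.8 and 26.7 CPM.

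TNFRSF13B, the TACI gene, was sparse, at 1.44, 2.27 and 2.04 CPM over all whole-marrow barcodes. Its highest gate was JCHAIN, at 45.2, 94.9 and 83.5 CPM, followed by MS4A1 at 38.1, 37.1 and 37.3 CPM. Marrow 1 was the low one in the JCHAIN gate, and the library values of the gates did not overlap. A UMI was found in 38.5%, 65.7% and 83.3% of JCHAIN-gated and 16.7%, 19.1% and 10.3% of MS4A1-gated barcodes. Their exact 95% intervals ran from 23.4% to 97.9% in the first gate and from 5.06% to 33.3% in the second. No UMI was counted in the MPO or ELANE gates of whole marrow or in the erythroid reference. With 641, 360 and 273 MPO-gated barcodes, 3 counts would be 0.311, 0.486 and 0.525 CPM. In the CXCL8 gate 1 barcode per marrow held all of the TNFRSF13B UMIs (1, 4 and 6). In the RefSeq annotation of another dog assembly (UU_Cfam_GSD_1.0), TNFRSF13B overlaps USP22, and no source used here says how overlapping reads were assigned, so its low values are uncertain. In the same annotation TNFSF13 lies beside TNFSF12, and a transcript joining the pair, known in human, would not be told apart from TNFSF13 by 3' counts.

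TNFRSF17, the BCMA gene, was a transcript of the JCHAIN gate. Its level there was 347, 305 and 291 CPM, and 84.6%, 94.3% and 91.7% of barcodes held a UMI. In the MS4A1 gate it was 209, 91.6 and 138 CPM. All 3 marrows were higher in the JCHAIN gate than any was in the MS4A1 gate, with means of 314 ± 29.3 and 147 ± 59.4 CPM (SD, n = 3). MPO, ELANE and VPREB1 gates had 0 to 1.57 CPM, beside 0.253 to 0.671 CPM in the erythroid reference. The CXCL8 gate had 13.9, 3.63 and 5.38 CPM, carried by 6, 3 and 2 barcodes. In marrow 1, 20 of its 42 UMIs there came from 1 barcode.

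The MS4A1 gate held cells of 2 profiles, and the receptors divided between them. Its 14, 8 and 13 barcodes with a TNFRSF17 UMI were deep (median 15754, 20526 and 20210 UMIs) and rich in JCHAIN, at 2329, 7944 and 4514 CPM. Their LTB was 3.88, 0 and 8.66 CPM and their PAX5 3.88, 0 and 2.89 CPM. The 34, 39 and 84 barcodes without TNFRSF17 were shallow (2852, 2396 and 3707 UMIs) and held 2028, 1100 and 3847 CPM of LTB and 242, 379 and 783 CPM of PAX5.

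Splitting the MS4A1 gate by JCHAIN, a division also made after the data were seen, separated the receptors further. With JCHAIN at 0 (32, 36 and 77 barcodes), TNFRSF13C was 635, 445 and 918 CPM, TNFRSF13B 5.00, 8.23 and 0 CPM, and TNFRSF17 50.0, 0 and 0 CPM, the 50.0 from 1 barcode. With JCHAIN detected (16, 11 and 20 barcodes), TNFRSF13C was 84.4, 69.6 and 79.6 CPM, TNFRSF13B 62.4, 69.6 and 71.9 CPM, and TNFRSF17 326, 195 and 267 CPM. None of the 3 receptors overlapped between the sets, whose median depths also differed, at 2215.5 to 3719 against 13648.5 to 16742 UMIs. Of barcodes with JCHAIN at 0, 28 of 32, 30 of 36 and 72 of 77 held TNFRSF13C alone among the receptors.

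Single plasma-gated barcodes often held more than 1 receptor. Of the 39 JCHAIN-gated barcodes of marrow 1, 14 held TNFRSF17 with TNFRSF13B and 16 held TNFRSF17 with TNFRSF13C. In marrow 2, with 35 barcodes, these numbers were 22 and 15, and in marrow 3, with 12 barcodes, 9 and 7. All 3 receptors were found together in 4, 10 and 5 barcodes, and none in 5, 1 and 0. Marrow 1 had the lowest median depth in the gate (7875 UMIs) and the lowest share with all 3, and the part of depth in these counts was not tested.

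**Figure D3:**
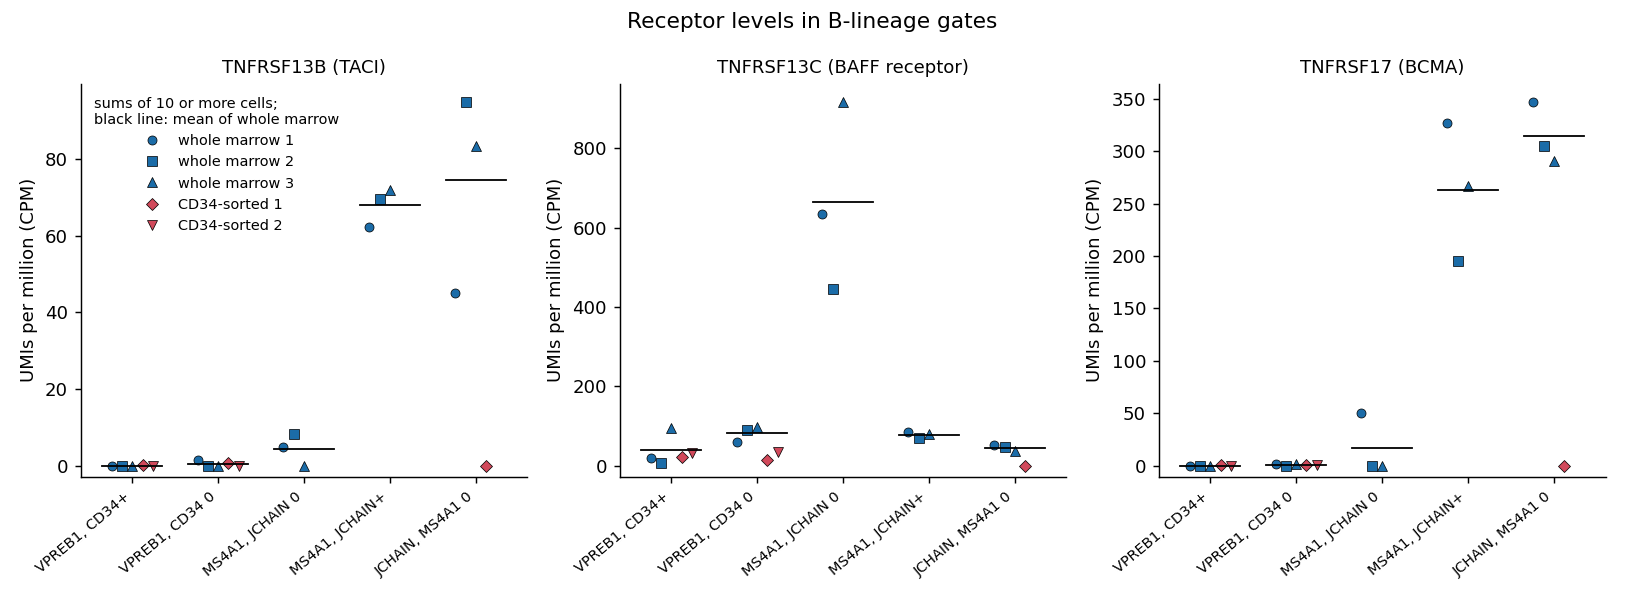
Level of the receptors in CPM in B-lineage barcodes split by CD34 and JCHAIN, 1 point per library for sums of at least 10 barcodes. TNFRSF13C peaks at 445 to 918 CPM in MS4A1-gated barcodes with JCHAIN at 0, and TNFRSF17 is high where JCHAIN is present (195 to 347 CPM).

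As senders of TNFSF13, the VCAN gate held 38.1%, 45.9% and 41.0% of its whole-marrow UMIs in 7.75%, 11.2% and 7.41% of barcodes. The MPO gate held 31.6%, 32.7% and 27.8%, and the ELANE gate 24.2%, 20.6% and 26.1%. The CAMP gate, with 31.8% to 33.8% of barcodes, held 17.6% to 27.4%. Barcodes in more than 1 gate count in each, and 12.4% to 18.3% lay in none of the 8. In the sorted libraries the MPO gate was the sender, with 75.5% and 56.9% of TNFSF13 UMIs.

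TNFSF13B had the MPO and VCAN gates as senders in whole marrow, the first with 37.1%, 29.5% and 29.2% of UMIs and the second with 25.3%, 28.6% and 29.6%. CD34-gated barcodes outside the 8 gates, only 0.589% to 0.829% of whole-marrow barcodes, held 14.7%, 12.8% and 15.6%. In sorted libraries they were the main sender, with 65.1% and 63.7% of UMIs in 37.9% and 34.6% of barcodes.

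The receiver gates of whole marrow were small, and most TNFRSF13C UMIs lay outside the 8 gates. In the sorted libraries the VPREB1 gate held 298 of 1534 and 484 of 1980 TNFRSF13C UMIs, so most lay outside it. The JCHAIN gate, 0.276% to 0.763% of whole-marrow barcodes, held 29.6%, 58.2% and 31.6% of TNFRSF17 UMIs and 29.3%, 52.0% and 29.7% of TNFRSF13B UMIs. The MS4A1 gate, 0.658% to 2.23% of barcodes, held 16.0%, 19.8% and 24.4% of TNFRSF13C UMIs, 17.3%, 14.4% and 35.02% of TNFRSF17 UMIs and 24%, 16.7% and 30.8% of TNFRSF13B UMIs. A further 43.4%, 21.9% and 30.3% of TNFRSF17 UMIs and 41.3%, 27.5% and 38.5% of TNFRSF13B UMIs lay in none of the 8 gates. The 63, 19 and 17 outside-gate barcodes with a TNFRSF17 UMI held 1401, 2456 and 2064 CPM of JCHAIN against 8.62, 12.51 and 3.48 CPM in the rest. Transcript counts do not show secreted ligand, surface receptor or binding.

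Gates and libraries were next compared by summing UMIs per gate and library and testing the sums over all genes with edgeR's quasi-likelihood test, adjusted by Benjamini-Hochberg at 0.05. Fold changes are log2 values ± SE, scaled by TMM factors, so they can differ from ratios of the CPM levels. Comparisons within whole marrow kept the library as a block and left out barcodes in both gates. Some comparisons share sums: MS4A1, CAMP and CXCL8 gates each enter 2 of them. The sorted libraries come from 2 of the same dogs, and fits of sorted against whole marrow treat the libraries as independent unless the dog is a block. Each fit rests on few libraries and on a dispersion that draws on all genes. Very small p-values are therefore not a measure of the spread between animals. Before the fold changes, scaling is given once: with total UMIs alone in place of TMM, the median log2 fold change of all genes moved from between -0.03 and 0.15 to 0.33 (sorted against whole), -0.46 (MS4A1 against VPREB1), -1.03 (JCHAIN against MS4A1), 0.75 (VCAN against CXCL8), 0.73 (CXCL8 against CAMP), -0.05 (CAMP against ELANE), -0.06 (VPREB1 gate, sorted against whole) and 0.63 (MPO gate, sorted against whole).

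CAMP-gated barcodes held less of both ligands than ELANE-gated ones. TNFSF13 fell by 1.49 ± 0.11 on the log2 scale (adjusted p = 3.8e-39, edgeR) and TNFSF13B by 4.40 ± 0.25 (adjusted p = 1.53e-66, edgeR), lower in 3 of 3 marrows each. Here 70.4% of 7656 tested genes were called, 37.3% higher and 33.1% lower, so a call alone says little. CPM in the barcodes compared were 26.1 to 34.1 against 91.4 to 97.1 for TNFSF13, and 0.456 to 1.56 against 21.4 to 29.2 for TNFSF13B. TNFRSF13C, at 3.02 ± 1.66 against 1.97 ± 0.686 CPM (SD, n = 3), did not pass (0.75 ± 0.40, adjusted p = 0.0834, edgeR). TNFRSF13B and TNFRSF17 were too sparse to be tested.

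Between CXCL8 and CAMP gates, TNFSF13B rose by 2.40 ± 0.30 (adjusted p = 4.28e-09, edgeR), from 1.40 to 1.69 CPM to 7.25 to 25.6 CPM. TNFRSF13C rose by 1.33 ± 0.28 (adjusted p = 7.89e-05, edgeR). The background was 57.6% of 8200 genes called, 27.6% higher and 30% lower, and 47.9% of calls were higher with TMM against 87.0% with total UMIs alone. TNFSF13 did not pass (-0.58 ± 0.52, adjusted p = 0.436, edgeR), and its sign turned to 0.19 with total UMIs alone. Without marrow 2 it fell by 1.04 (adjusted p = 4.76e-07, edgeR). TNFRSF17 passed (1.34 ± 0.36, adjusted p = 0.00214, edgeR) but rested on a few barcodes: without marrow 1 the adjusted p was 0.121, without the library block 0.0602, and with called doublets removed 0.544 (all edgeR). Over 12 settings its adjusted p ran from 8.39e-06 to 0.544, and 7 passed.

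VCAN-gated barcodes held more TNFSF13 than CXCL8-gated ones outside the overlap, by 1.15 ± 0.17 (adjusted p = 4.94e-05, edgeR), at 104 to 127 against 22.2 to 46.3 CPM. TNFRSF13C fell by 1.98 ± 0.28 (adjusted p = 1.01e-05, edgeR) and TNFRSF17 by 2.67 ± 0.42 (adjusted p = 4.35e-05, edgeR). Of 8707 genes tested, 61.4% were called, 31.4% higher and 29.9% lower, and 51.2% of calls were higher with TMM and 74.6% with total UMIs alone. TNFSF13B did not pass (0.40 ± 0.30, adjusted p = 0.261, edgeR). It passed without marrow 2 (0.83, adjusted p = 0.0111, edgeR) and turned to -0.023 without marrow 3, with adjusted p from 0.000785 to 0.953 over 14 settings. TNFRSF13C lost its call at a 5% mitochondrial limit (adjusted p = 0.0757, edgeR) and TNFRSF17 with stricter gates (adjusted p = 0.48, edgeR), 1 setting each. The 5% limit left 233, 81 and 56 barcodes in the VCAN sums of marrows 1 to 3.

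MS4A1-gated barcodes held more of all 3 receptors than VPREB1-gated ones. TNFRSF13C rose by 3.29 ± 0.25 (adjusted p = 0.00023, edgeR), from 29.8 to 96.2 CPM to 268 to 481 CPM. TNFRSF17 rose by 7.50 ± 0.40 (adjusted p = 7.12e-05, edgeR), a size that rests on 4 UMIs in the VPREB1 gate. TNFRSF13B passed too (adjusted p = 0.000471, edgeR), with 1 UMI in the VPREB1 gate of all 3 marrows, so no fold is given. The TNFRSF17 and TNFRSF13B rises are those of the mixed MS4A1 gate. Where JCHAIN was at 0 in that gate, TNFRSF13B had 1, 2 and 0 UMIs in marrows 1 to 3. TNFRSF17 was held there by 1 barcode, in marrow 1. The background was 18.6% of 4734 genes called, 10.4% higher and 8.2% lower. Of the calls, 55.9% were higher with TMM and 15.3% with total UMIs alone. Both ligands were too sparse here to be tested.

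JCHAIN-gated barcodes were compared with MS4A1-gated ones in marrows 1 and 2, since marrow 3 had 12 barcodes in the JCHAIN gate. TNFRSF17 rose by 2.23 ± 0.32 (adjusted p = 7.36e-10, edgeR) and TNFRSF13B by 1.83 ± 0.41 (adjusted p = 0.000159, edgeR). TNFRSF13C fell by 1.53 ± 0.33 (adjusted p = 7.03e-05, edgeR), at 53.4 and 46.6 against 317 and 268 CPM. Of 3348 genes, 19.1% were called, 11.3% higher and 7.86% lower, and 58.9% of calls were higher with TMM, 71.4% with relative log expression factors and 2.16% with total UMIs alone. These 4 sums leave 1 residual degree of freedom. Without the library block the adjusted p-values were 0.0842, 0.118 and 0.0904 for TNFRSF17, TNFRSF13B and TNFRSF13C (edgeR), and with total UMIs alone TNFRSF17 (1.18, adjusted p = 0.0624) and TNFRSF13B (0.80, adjusted p = 0.188) did not pass. TNFRSF13C had an adjusted p of 0.116 with DESeq2. The MS4A1 sums are those of the mixed gate, whose barcodes with JCHAIN held most of its TNFRSF17 and TNFRSF13B UMIs. Over the alternatives TNFRSF17 ran from 1.18 to 6.30 and passed in 10 of 13 settings. TNFRSF13B ran from 0.80 to 5.78 and passed in 10 of 12, and TNFRSF13C from -2.58 to -1.48 and passed in 11 of 13.

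**Figure D4:**
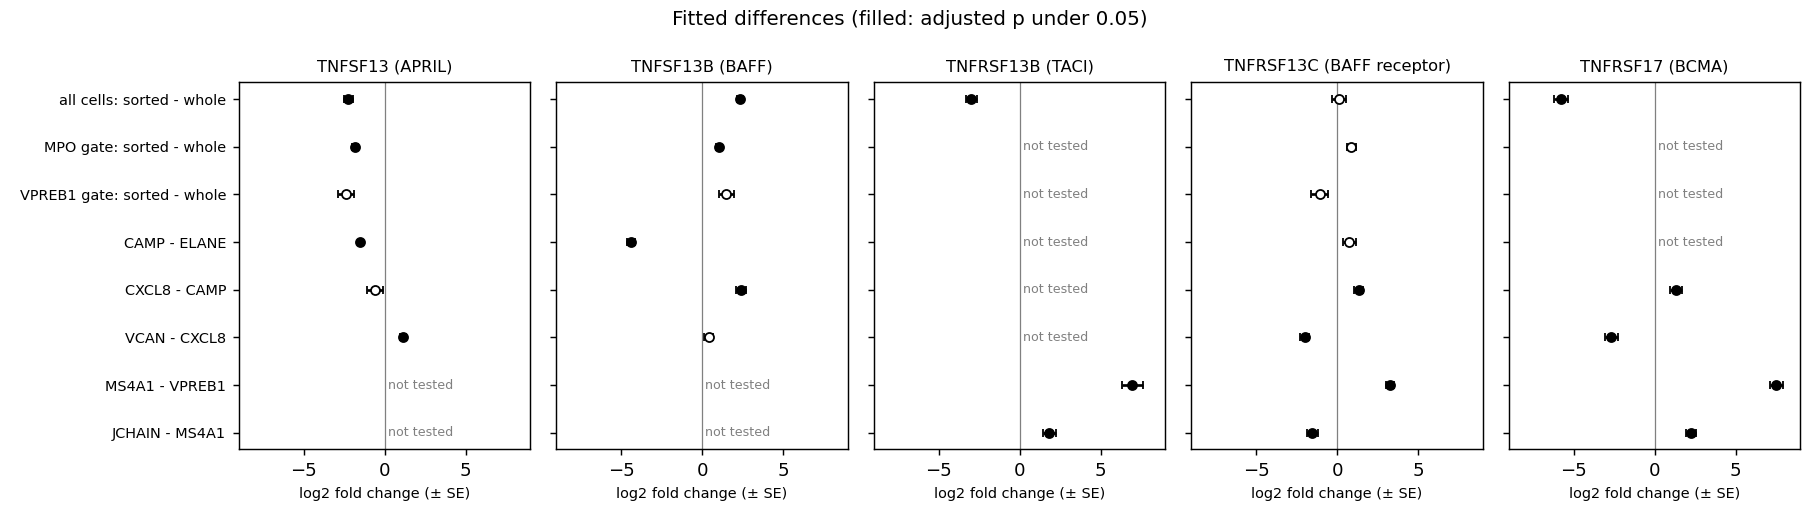
Log2 fold change ± SE (edgeR) of each gene in the 8 comparisons, filled where the adjusted p was under 0.05; comparisons in which a gene was too sparse to test are left out. TNFSF13 and TNFSF13B move in opposite directions between sorted and whole marrow (-2.23 and 2.32) and in the same direction between CAMP and ELANE gates (-1.49 and -4.40).

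Sorted libraries differed from whole marrow in 4 of the 5 genes, where 33.3% of 12506 genes were called, 15.9% higher and 17.3% lower. TNFSF13B was 95.5 and 74.5 CPM in sorted libraries and 15.1, 15.1 and 11.6 CPM in whole marrow, 5.00-fold higher in the fit (2.32 ± 0.18, adjusted p = 0.000853, edgeR). TNFSF13 ran the other way, at 10.8 and 18.4 against 65.3, 51.6 and 51.1 CPM (-2.23 ± 0.30, adjusted p = 0.0042, edgeR). TNFRSF17, at 0.180 CPM in both sorted libraries against 10.96, 6.50 and 6.65, fell by 5.76 ± 0.43 (adjusted p = 0.000813, edgeR), and TNFRSF13B by 2.97 ± 0.35 (adjusted p = 0.00272, edgeR), a call lost at a 5% mitochondrial limit (-0.87, adjusted p = 0.596, edgeR). That limit left 1062 of 4720 and 169 of 3765 barcodes in sorted libraries 1 and 2. TNFRSF13C overlapped, at 25.1 and 32.4 against 17.9, 13.8 and 33.3 CPM, and did not pass (0.10 ± 0.42, adjusted p = 0.875, edgeR). Sums over a whole library cannot tell more cells of a type from more RNA per cell. Of all calls, 47.9% were higher with TMM and 67.8% with total UMIs alone.

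For shares of barcodes with a UMI, the libraries entered an exact permutation test, two-sided, with 10 arrangements and a smallest p of 0.1. TNFSF13B was found in 48.1% ± 1.14 of sorted barcodes (SD, n = 2) and 7.46% ± 1.42 of whole-marrow barcodes (SD, n = 3, exact p = 0.1). After thinning to 1000 UMIs its shares were 6.23% and 0.764%. TNFRSF13C was found in 24.4% ± 4.80 and 8.997% ± 4.55 (exact p = 0.1), but after thinning to 1000 UMIs the values were 2.62% and 4.19% and overlapped (exact p = 0.6), so no order is read from the shares. TNFSF13 was found in 9.81% ± 2.69 and 17.0% ± 0.963 of barcodes (exact p = 0.1), and after thinning in 0.737% and 3.88%. These tests treat the libraries as independent, although 2 dogs gave both kinds.

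Within the MPO gate the ligands still differed between sorted and whole marrow. TNFSF13B was 96.0 and 85.1 CPM in sorted libraries against 30.3, 32.4 and 26.6 (1.04 ± 0.15, adjusted p = 0.00678, edgeR). TNFSF13 was 40.8 and 56.1 against 112, 123 and 111 CPM (-1.81 ± 0.20, adjusted p = 0.00282, edgeR). The background was 18.4% of 9412 genes called, 7.39% higher and 11% lower, and 40.2% of calls were higher with TMM and 85.5% with total UMIs alone. With the dog as a block, 3267 genes were called in place of 1731. ELANE-gated barcodes were few in the sorted libraries, and with barcodes of more than 1 gate left out neither ligand passed (TNFSF13B 0.30, adjusted p = 0.721; TNFSF13 -1.16, adjusted p = 0.13; edgeR). TNFSF13B also lost its call without sorted library 1 (adjusted p = 0.0602, edgeR) or 2 (adjusted p = 0.0529, edgeR), and passed in 13 of 16 settings, while TNFSF13 passed in 15. TNFRSF13C, at 11.5 and 10.8 against 3.01 to 5.07 CPM, did not pass with TMM (0.88 ± 0.29, adjusted p = 0.0724, edgeR) and passed with total UMIs alone (1.44, adjusted p = 0.0151, edgeR).

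Within the VPREB1 gate none of the 3 genes tested passed in the main fit, which had no block and called 0.649% of 7551 genes. TNFSF13 was 1.93 and 2.31 CPM in sorted libraries against 8.50, 20.6 and 10.4 (-2.39 ± 0.51, adjusted p = 0.125, edgeR). TNFSF13B was 43.4 and 23.7 against 17.0, 18.3 and 6.27 CPM (1.51 ± 0.48, adjusted p = 0.372, edgeR). TNFRSF13C was 20.6 and 32.9 against 39.0, 29.8 and 97.7 CPM (-1.07 ± 0.52, adjusted p = 0.666, edgeR). With the dog as a block all 3 passed, at adjusted p = 0.0158, 0.0141 and 0.0265 (edgeR), and 316 genes were called in place of 49. TNFSF13 also passed with DESeq2 (adjusted p = 0.00512). Late neutrophil markers summed to 2683 to 4826 CPM in this gate of whole marrow, and to 9.66 and 9.52 CPM in sorted libraries 1 and 2. The part that mixed barcodes or free RNA have in the TNFSF13 difference was not tested. Over all alternatives TNFSF13 passed in 3 of 14 settings, TNFSF13B in 1 of 15 and TNFRSF13C in 2 of 16. The sort difference was also compared between the MPO and VPREB1 gates by an interaction term: 0.551% of 10341 genes were called, and TNFSF13 (0.42 ± 0.39, adjusted p = 0.722), TNFSF13B (-0.59 ± 0.49, adjusted p = 0.682) and TNFRSF13C (1.83 ± 0.64, adjusted p = 0.241, all edgeR) were not among them.

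The wider pathway was followed with a list of 42 genes for adaptors, kinases, NF-kB proteins, survival proteins, surface partners and cleaving proteases, of which 41 were found in the files. In the CAMP gate against the ELANE gate, 12 of 24 tested rose and 1 fell, with a median of 0.50 beside 0.07 over all genes. Over all genes 37.3% were higher and 33.1% lower, and whether the list differs from all genes was not tested. With DESeq2 10 rose and 0 fell, and without the library block 11 and 0. The largest rises were in NFKBIA, the NF-kB inhibitor (3.03 ± 0.21, adjusted p = 2.27e-44, edgeR), in the survival genes MCL1 (3.03 ± 0.12, adjusted p = 9.55e-122) and BCL2A1 (2.30 ± 0.18, adjusted p = 3.55e-36), and in FURIN, a protease that cleaves the ligands (2.67 ± 0.56, adjusted p = 4.25e-06). TRAF3, the adaptor that holds back the non-canonical NF-kB pathway, fell by 0.69 ± 0.29 (adjusted p = 0.026, edgeR), the call that DESeq2 and the fit without the block did not make.

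Between CXCL8 and CAMP gates, 13 of 30 tested rose and 4 fell (median 0.31 beside -0.03), where 57.6% of all genes were called, 27.6% higher and 30% lower. With total UMIs alone 20 rose and 0 fell, and without the library block 10 and 2. BCL2A1 rose from 23.7 to 503 CPM (3.54 ± 0.16, adjusted p = 3.11e-23, edgeR). The NF-kB subunit RELB rose by 3.31 ± 0.38 (adjusted p = 4.42e-10), REL by 3.03 ± 0.18 (adjusted p = 2.6e-19) and the receptor CD40 by 3.30 ± 0.56 (adjusted p = 1.95e-06, all edgeR). BCL2L1, BIRC2, CAMLG and PSENEN fell, by 0.84 to 1.18.

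VCAN against CXCL8 gates gave 2 higher and 15 lower of 26 tested (median -0.62 beside 0.15), where 31.4% of all genes were higher and 29.9% lower. DESeq2 gave 1 higher and 14 lower, and the fit without the block 1 and 13. With total UMIs alone these were 8 and 9, and PSENEN and RELA changed sign. NFKBIA fell from 95.01 to 12.3 CPM (-3.47 ± 0.16, adjusted p = 4.52e-12, edgeR), and MCL1 from 307 to 89.4 CPM (-2.39, adjusted p = 3.58e-11, edgeR). FURIN fell by 2.69 (adjusted p = 9.18e-08) and the kinase MAP3K14 by 2.06 (adjusted p = 3.55e-06, both edgeR). CD40 (1.66 ± 0.44, adjusted p = 0.00387) and CAMLG, a TACI-binding protein (0.77, adjusted p = 0.0113, both edgeR), rose.

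Among B-lineage gates, MS4A1 against VPREB1 gave 5 higher and 0 lower of 17 tested (median 0.52 beside 0.04), where 10.4% of all genes were higher and 8.2% lower. With DESeq2 or without the library block 3 were higher and 0 lower, and with total UMIs alone 2 and 2. With TMM, 0 were lower and 7 higher at an unadjusted p under 0.05 (edgeR). CD40 rose from 4.88 to 51.5 CPM (3.76 ± 0.39, adjusted p = 0.000677, edgeR) and BCL2A1 from 59.0 to 134 CPM (1.70 ± 0.22, adjusted p = 0.00141, edgeR), with MCL1 (1.03, adjusted p = 0.0102) and REL (0.81, adjusted p = 0.0317) behind them. JCHAIN against MS4A1 gave 0 higher and 3 lower of 13 (median -0.34 beside 0.01), where 11.3% of all genes were higher and 7.86% lower, and 0 of either without the library block or with DESeq2. At an unadjusted p under 0.05, 1 was higher with edgeR. CD40 had no UMI in the JCHAIN gate and was at least 15.7-fold lower there, from a floor of 3 counts over the group. ADAM10, a sheddase (-2.99 ± 0.81, adjusted p = 0.00294), and REL (-1.23 ± 0.43, adjusted p = 0.0295, both edgeR) were the others.

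Sorted against whole marrow gave 4 higher and 8 lower of 39 tested (median -0.16 beside 0.05), where 15.9% of all genes were higher and 17.3% lower, and 6 and 6 with total UMIs alone. The survival gene BCL2 rose from 3.94 to 25.5 CPM (2.40 ± 0.26, adjusted p = 0.00217, edgeR) and TRAF3IP2 from 0.679 to 6.62 CPM (3.01 ± 0.37, adjusted p = 0.00305, edgeR). CAMLG rose by 0.60 ± 0.15 (adjusted p = 0.0272, edgeR). SDC1, CD40LG, TNFRSF12A and BCL2A1 fell the most, BCL2A1 from 104 to 43.2 CPM (-1.56, adjusted p = 0.00514, edgeR). Inside the MPO gate 4 of 30 were higher and 2 lower (median 0.21 beside 0.07), where 7.39% of all genes were higher and 11% lower. Counts were 11 and 0 with total UMIs alone, 2 and 2 with DESeq2, and 6 and 3 with the dog as a block. Those higher included CD40 (2.35 ± 0.52), BCL2 (1.54 ± 0.31) and NFKB2 (1.32 ± 0.35), and MYD88 and PSENEN were lower. In the VPREB1 gate 0 of 28 passed with edgeR or DESeq2, and 3 had an unadjusted p under 0.05 with edgeR.

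Genes most like each member were ranked by Pearson's r of log2(CPM + 10) over 28 gate-by-library sums, among 7134 genes. The sums share libraries and barcodes, so r is a description. TNFSF13 was most like NPC2 (0.94), TMEM205 (0.93) and CTSA (0.93), of which NPC2 and CTSA encode lysosomal proteins. TNFSF13B was most like KIT (0.93), the stem cell factor receptor, DMD (0.93) and CNTLN (0.88). TNFRSF13C was most like BTLA (0.97), an inhibitory receptor of lymphocytes, and P2RY10 (0.94). TNFRSF17 was most like SLAMF7 (0.98), a plasma-cell surface protein, TENT5C (0.98) and TNFRSF13B (0.98), and TNFRSF13B was most like BMP6 (1.00), SMIM1 (0.98) and RAB30 (0.98).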

How the data were processed

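Droplet libraries were made with the Chromium 3' v3.1 kit, per the labels' protocols. The deposited tables hold raw counts of UMIs per gene and barcode, not normalized. Cell Ranger made them on CanFam3.1, per the submitters' processing notes, which give version 7.1.0, while 7.0.1 stands in the file headers. The annotation release and strand setting are not given in the sources used here, no dog genome of that build was used, and no sequences or coordinates are given. Columns of other samples numbered 0.

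Mitochondrial genes numbered 13. CPM is computed from the UMIs of a gate's kept barcodes. Sums of at least 20 barcodes were fitted with edgeR 4.0.16 in R 4.3.3 (TMM, low-count filter, robust quasi-likelihood), leaving out the gate genes, and CD34 in comparisons of sorted with whole marrow. The code was tested on simulated data. Exact binomial intervals, thinning to 1000 UMIs and permutations used numpy 2.4.6 and scipy 1.17.1, and Scrublet in scanpy 1.11.5 called doublets at 0.8% expected per 1000 barcodes. Alternatives used DESeq2 1.42.0, other scaling, filters, gates, blocks and left-out libraries.

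The protocol says which marrows were sorted, and library names tie sorted library 1 to marrow 2 and sorted library 2 to marrow 3. Deviations of libraries tied in this way correlated at 0.34, 0.45 and 0.42 over all barcodes, the VPREB1 gate and the MPO gate. The members, gates and gene lists were chosen with earlier results of these data known. Of the pathway list, up to 4 genes per direction with the largest change past 0.05 are named in each comparison, and the 3 genes most like each member. Some genes that this rule picks are not reported here.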

Additional observations from a re-analysis of the deposited data

How the results depend on the processing

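Leaving out 1 library in turn gave ranges of called genes of 1754 to 4669 (sorted against whole), 124 to 471 (MS4A1 against VPREB1), 640 (JCHAIN against MS4A1, a repeat of the main fit, which marrow 3 did not enter), 4706 to 4939 (VCAN against CXCL8), 4093 to 4419 (CXCL8 against CAMP), 4929 to 5108 (CAMP against ELANE), 21 to 79 (VPREB1 gate, sorted against whole) and 220 to 2357 (MPO gate, sorted against whole). Counts moved over 1.5 times without sorted library 1 (1754) or 2 (2057) in the first, without marrow 1 (124), 2 (471) or 3 (468) in the second, without marrow 1 (79) or sorted library 1 (22) or 2 (21) in the VPREB1 gate, and without marrow 3 (753) or sorted library 1 (378) or 2 (220) in the MPO gate. Main counts were 4160, 879, 640, 5343, 4721, 5388, 49 and 1731 in the same order. Moved counts for MS4A1 against VPREB1 were 1445 with total UMIs alone, 1511 with looser gates and 366 with JCHAIN at 0 in the MS4A1 gate. For JCHAIN against MS4A1 they were 213 with relative log expression factors, 72 with DESeq2, 1298 with total UMIs alone, 2 without the replicate block, 277 with barcodes of more than 1 gate left out, 361 with JCHAIN at 0 in the MS4A1 gate and 426 without the replicate block at 10 cells per sum. CXCL8 against CAMP gave 2974 without the replicate block. The VPREB1 gate gave 149 with DESeq2, 133 without the low-count filter, 22 without called doublets, 316 with the dog as a replicate block and 8 with barcodes of more than 1 gate left out. The MPO gate gave 3233 with total UMIs alone, 3267 with the dog as a replicate block and 34 with barcodes of more than 1 gate left out. The block changed no call of a member beyond those given with each comparison. Total UMIs alone, JCHAIN at 0, 10 cells per sum and the interaction were chosen after seeing the data.

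The sign of a member's log2 fold change turned in 6 alternatives. TNFRSF13C between sorted and whole marrow was -0.0056 without whole marrow 1, -0.18 without whole marrow 2 and -0.10 without sorted library 2, over a range of -0.18 to 0.58. TNFSF13B between VCAN and CXCL8 gates was -0.023 without marrow 3 and 0.83 without marrow 2. TNFSF13 between CXCL8 and CAMP gates was 0.19 with total UMIs alone, and TNFRSF13C in the MPO gate was -0.17 with barcodes of more than 1 gate left out. The sorted-minus-whole difference in the share of TNFRSF13C-positive barcodes was -1.57 percentage points after thinning. The cause was not tested. Of 374 member alternatives, 336 kept direction and side of the threshold, 19 lost the threshold and 13 passed it. Those that kept them include JCHAIN against MS4A1 without marrow 3, which repeats the main fit.

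Levels moved most where gates were redrawn. With barcodes of more than 1 gate left out, TNFSF13B in the MPO gate was 77.3 CPM, and TNFSF13 was 28.6 in the CAMP and 30.4 in the CXCL8 gate. Limiting mitochondrial UMIs to 5% gave 12.2 CPM for TNFSF13B in the MPO gate and 217 for TNFRSF13C in the MS4A1 gate. It left 393, 236 and 156 MPO-gated and 10, 16 and 13 MS4A1-gated barcodes in marrows 1 to 3. MS4A1 against VPREB1 and JCHAIN against MS4A1 could not be fitted with the 5% limit or with stricter gates, JCHAIN against MS4A1 without marrow 1 or 2, or CAMP against ELANE with barcodes of more than 1 gate left out. Counts under about 3 UMIs per sum limit TNFRSF13B and TNFRSF17 in myeloid gates.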
